A study of Mus musculus with 8 samples.

Results

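The extracellular matrix is cut by proteases that are held in check by dedicated inhibitors, and 9 genes of this system were followed here in mouse thymic epithelial cells (TECs): the matrix metalloproteinase (MMP) genes *Mmp2*, *Mmp9* and *Mmp14*, the tissue inhibitor genes *Timp1*, *Timp2* and *Timp3*, and the plasminogen activator genes *Plau* and *Plat* with the receptor gene *Plaur*. They are 9 of the 56923 genes in the count files, and all 9 were among the 14504 genes that passed the filter on low counts (1 CPM or more in 3 or more of the 8 libraries, CPM being counts scaled to a common library size). The set was chosen by family and role, with *Mmp9* picked because its level was higher in organoids at day 7 than at day 3, and it was proposed with earlier results of these data in view. For *Mmp9*, values in any comparison with organoids are therefore a description without a test. Total TECs were sorted as EpCAM+ cells from thymi of wild-type, untreated C57BL/6J embryos at E16.5, with stains for CD45, Ter119, PDGFRα, PDGFRβ and CD31 in the sort, and all 4 groups, of 2 libraries each, started from such cells. In vivo TECs were lysed directly after sorting. 2D-cultured TECs grew on laminin and were lysed after 3 days as a confluent monolayer, so no 2D sample matches the day 7 organoids in time. D3 and D7 organoids grew in Matrigel, a basement membrane gel, for 3 and 7 days. Both cultures received TEC medium with the epithelial growth factor FGF7. The additive thiazovivin was in the collection medium of the sort and, for the first 2 days, in the organoid medium. Its use in 2D is not stated. The labels call the 2 libraries of each group biological replicates, and the study's legend counts 2 mice per condition.

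MMPs are zinc-dependent enzymes made as inactive proforms. MMP14 is anchored in the cell membrane, where it cleaves collagen and, together with TIMP2, activates proMMP2, while MMP2 and MMP9 are secreted gelatinases that degrade denatured collagen and basement membrane collagen. The TIMPs bind active MMPs, and TIMP3 in addition stays bound to the matrix and blocks several ADAM and ADAMTS proteases. *Plau* encodes urokinase and *Plat* tissue plasminogen activator, both of which turn plasminogen into plasmin, and *Plaur* encodes the cell surface receptor that concentrates urokinase at the membrane. In the thymus, epithelium sits in a matrix-rich meshwork through which thymocytes migrate.

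On GRCm39, the build of the deposited counts, *Mmp2* (ENSMUSG00000031740) lies at chr8:93553902-93580049, *Mmp9* (ENSMUSG00000017737) at chr2:164780439-164797771 and *Mmp14* (ENSMUSG00000000957) at chr14:54668878-54682821, all on the plus strand. *Timp1* (ENSMUSG00000001131) lies at chrX:20736316-20740976 on the plus strand, *Timp2* (ENSMUSG00000017466) at chr11:118191887-118246566 on the minus strand and *Timp3* (ENSMUSG00000020044) at chr10:86136236-86185371 on the plus strand. *Plau* (ENSMUSG00000021822) lies at chr14:20886722-20893453, *Plat* (ENSMUSG00000031538) at chr8:23247709-23272871 and *Plaur* (ENSMUSG00000046223) at chr7:24161875-24175394, all on the plus strand. Exons of 4 members overlap those of an opposite-strand gene in the annotation (860 of 3533 exonic bases of *Mmp2*, 219 of 6166 of *Mmp14*, 1734 of 8146 of *Timp3* and 388 of 2567 of *Plau*), and *Timp2* shares 332 of 4463 exonic bases with *Cep295nl* on its own strand. *Timp1* lies inside *Syn1* but shares 0 exonic bases with it. The strand setting of the counting is not given in the sources used here, so reads from these stretches cannot be assigned with certainty.

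The 250 bases before the start of the canonical transcript were read for all 9 genes, and 4 of these promoters are shown because *Timp1*, *Plau* and *Plaur* were the members highest in 2D-cultured TECs relative to in vivo TECs, and because *Mmp9* and *Plaur* hold the letters of an AP-1 site. Capitals mark TGANTCA, searched on both strands (its reverse complement is the same pattern). The sequences run 5′ to 3′ on the plus strand of GRCm39, at chr2:164789889-164790138 (*Mmp9*), chr7:24161625-24161874 (*Plaur*), chr14:20886472-20886721 (*Plau*) and chrX:20736101-20736350 (*Timp1*).
Mmp9: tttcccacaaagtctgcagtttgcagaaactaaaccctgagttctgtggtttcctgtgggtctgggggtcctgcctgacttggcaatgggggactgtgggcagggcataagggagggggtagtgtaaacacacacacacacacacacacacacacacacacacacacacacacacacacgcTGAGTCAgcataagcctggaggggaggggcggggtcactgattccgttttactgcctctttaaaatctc
Plaur: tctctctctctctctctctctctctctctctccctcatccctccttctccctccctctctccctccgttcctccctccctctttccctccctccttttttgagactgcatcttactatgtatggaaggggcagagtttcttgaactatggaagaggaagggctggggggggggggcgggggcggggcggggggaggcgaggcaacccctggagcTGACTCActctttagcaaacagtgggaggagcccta
Plau: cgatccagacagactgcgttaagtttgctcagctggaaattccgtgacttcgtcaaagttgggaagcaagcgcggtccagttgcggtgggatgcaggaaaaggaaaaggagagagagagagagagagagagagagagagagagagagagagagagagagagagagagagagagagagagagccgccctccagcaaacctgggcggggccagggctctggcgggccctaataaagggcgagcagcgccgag
Timp1: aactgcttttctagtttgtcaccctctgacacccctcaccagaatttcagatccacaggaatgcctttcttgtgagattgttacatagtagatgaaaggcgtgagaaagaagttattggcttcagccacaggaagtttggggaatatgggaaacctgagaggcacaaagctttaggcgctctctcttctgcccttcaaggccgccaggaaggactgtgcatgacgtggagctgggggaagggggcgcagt
The match begins 69 bases before the start in *Mmp9* and 36 bases before it in *Plaur*. It was present in 2 of 9 members, against 6.17% of 21770 promoters of protein-coding genes of the same length. The GC box letters GGGCGG were present in 4 of 9 members (*Mmp2*, *Mmp9*, *Plau* and *Plaur*), against 36.3% of those promoters, and TATAAA in 0 of 9, against 11.9%. Both patterns were also searched on both strands and overlap no AP-1 match, and a match describes letters only. The 2 genes with an AP-1 match differed in pattern, *Plaur* being highest in 2D-cultured TECs and *Mmp9* highest in vivo.

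The libraries held 5084715 to 7612532 counts, with 16748 to 19943 genes detected, and the 18S rRNA gene took 16.6% to 24.3% of the counts. The 2 libraries of a group differed by more than counting noise in all 4 groups (a chi-square of 6.82 to 8.70 for each degree of freedom), and each library was treated as its own sample. Of the 8 TEC markers listed, *Epcam* was at 191 CPM or more in every library, whereas *Foxn1*, the master regulator of TEC identity, was at 223 and 273 CPM in vivo, 8.52 and 4.82 in 2D, 8.76 and 9.61 in D3 organoids and 60.5 and 84.9 in D7 organoids. The markers did not run together. In 2D the keratin genes *Krt8*, *Krt18*, *Krt5* and *Krt14* and *Epcam* were called higher than in vivo, and *Foxn1*, *Psmb11* and *Cd83* lower. In D7 organoids *Krt8*, *Krt18*, *Krt5*, *Foxn1*, *Psmb11* and *Cd83* were called lower than in vivo, and only *Epcam* higher. *Krt18* was at 1659 and 1824 CPM in vivo, 3585 and 3150 in 2D, 266 and 250 in D3 and 483 and 494 in D7 organoids. Because these are bulk samples, fewer cells of a type and less RNA per cell cannot be told apart.

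More of the 9 genes were called in comparisons with the 2D monolayer than in those without it, as were more of all genes tested. In 2D-cultured TECs, 8 of 9 genes differed from in vivo TECs, 5 higher (*Mmp14*, *Timp1*, *Timp2*, *Plau* and *Plaur*) and 3 lower (*Mmp2*, *Mmp9* and *Timp3*), against 41.6% of all genes tested (19.9% higher and 21.7% lower). Their median log2 fold change was 1.59, and that of all genes was -0.056. Without *Mmp9*, the D3 organoids differed from in vivo TECs in 4 of 8 genes (*Timp1* and *Plat* higher, *Mmp2* and *Plau* lower), with 28.2% of all genes called (14.1% higher and 14.0% lower). The D7 organoids also differed from in vivo TECs in 4 of 8 (*Timp1*, *Timp2* and *Plat* higher, *Plau* lower), with 34.8% called (18.0% higher and 16.8% lower). Against the 2D monolayer, 7 of 8 genes differed in D3 organoids, 2 higher and 5 lower, with 38.3% of all genes called (19.3% higher and 19.1% lower). In D7 organoids 6 of 8 differed from 2D, 2 higher and 4 lower, with 45.5% called (24.4% higher and 21.1% lower), and *Mmp2* and *Timp3* were the 2 higher genes at both times. Between the organoid time points, *Mmp2* and *Timp2* were higher and *Mmp14* and *Plau* lower at D7, which is 4 of 8 genes against 20.8% of all genes (10.9% higher and 9.90% lower). Calls are at an adjusted p of at most 0.05 (quasi-likelihood test of edgeR, adjusted over all genes by Benjamini-Hochberg), and the comparisons share libraries and so are not independent of each other. With 2 libraries against 2, an exact permutation test of a single gene could not go below p = 0.333, so all tests rest on the spread estimated across genes and groups.

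**Figure D1:**
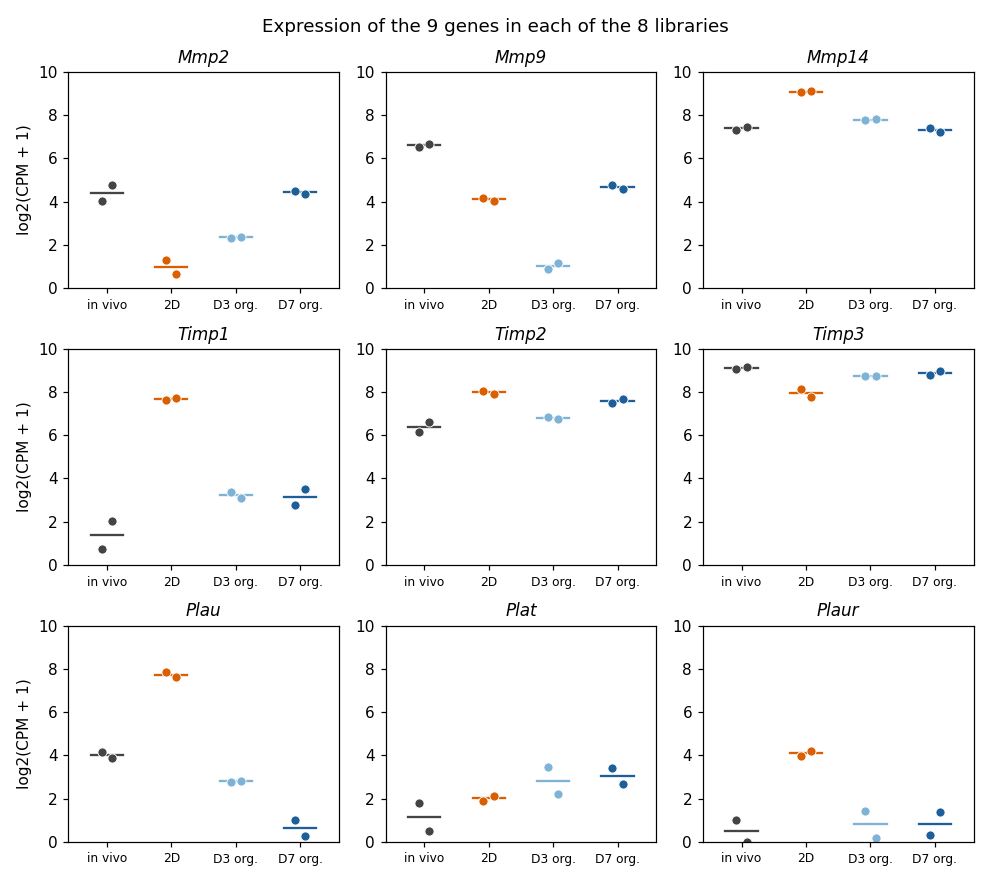
Level of each of the 9 genes as log2(CPM + 1) on the vertical axis, by group on the horizontal axis, with 1 point per library and a bar at the mean of the 2 libraries of a group. *Timp1*, *Plau* and *Plaur* stand highest in the 2D-cultured TECs, *Mmp2* lowest there, and *Mmp9* is at 0.842 and 1.25 CPM in D3 organoids against 26.2 and 22.7 CPM in D7 organoids.

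Among the metalloproteinases, *Mmp14*, the membrane-bound collagenase, was high in every library and highest in the monolayer. It reached 160 and 176 CPM in vivo, 529 and 553 in 2D, 215 and 224 in D3 organoids and 166 and 150 in D7 organoids. Both 2D libraries lay above all others, and the in vivo and D7 libraries overlapped. In 2D it was 3.21-fold higher than in vivo (log2 1.68, SE 0.15, adjusted p = 6.4e-08 in edgeR). Organoids were below 2D at both times, 2.46-fold at D3 (adjusted p = 1.7e-06) and 3.42-fold at D7 (adjusted p = 4e-08). From D3 to D7 *Mmp14* fell by 0.47 on the log2 scale (SE 0.14, adjusted p = 0.028 in edgeR), a call that was lost when any 1 of those 4 libraries was left out (log2 -0.55 to -0.39). D3 organoids and in vivo TECs differed by log2 0.38 (95% interval 0.10 to 0.67, adjusted p = 0.058), and D7 organoids and in vivo TECs by -0.09 (95% interval -0.38 to 0.19, adjusted p = 0.67).

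*Mmp2*, whose proform MMP14 activates, ran the other way. Its level was 15.3 and 26.0 CPM in vivo, 1.45 and 0.556 in 2D (8 and 3 counts), 4.04 and 4.18 in D3 organoids and 21.5 and 19.5 in D7 organoids. The 2D libraries were the lowest, the D3 libraries came next, and the D7 libraries fell within the in vivo range. Relative to in vivo TECs it was 20.2-fold lower in 2D (log2 -4.34, SE 0.47, adjusted p = 8.4e-07 in edgeR) and 5.02-fold lower in D3 organoids (log2 -2.33, SE 0.37, adjusted p = 0.00013). From D3 to D7 it rose 4.97-fold (log2 2.31, SE 0.37, adjusted p = 0.00042), and the D7 level was not distinguished from the in vivo level (log2 -0.01, 95% interval -0.66 to 0.63, adjusted p = 0.98). Organoids exceeded 2D by log2 2.01 at D3 (SE 0.52, adjusted p = 0.0058 in edgeR) and by 4.32 at D7 (SE 0.47, adjusted p = 9.9e-07). These differences rest on few counts in 2D. Without 2D replicate 2 the D3 difference was 1.48 and no longer called, without 2D replicate 1 it was 2.84, and limma-voom did not call it with all libraries. Leaving out the same libraries moved the 2D difference from in vivo TECs between -5.17 and -3.81 and the D7 difference from 2D between 3.80 and 5.15, all called.

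*Mmp9*, the second gelatinase, was at 92.5 and 99.3 CPM in vivo, 17.2 and 15.4 in 2D, 0.842 and 1.25 in D3 organoids (5 and 9 counts) and 26.2 and 22.7 in D7 organoids (212 and 115 counts). No 2 groups overlapped, and the order from the highest was in vivo, D7 organoids, 2D and D3 organoids. In the one comparison that its choice did not use, it was 5.88-fold lower in 2D than in vivo (log2 -2.56, SE 0.22, adjusted p = 4.3e-08 in edgeR). As a description, D3 organoids lay 6.47 log2 units under in vivo TECs and 3.91 under 2D, D7 organoids lay 4.50 above D3, and D7 organoids were still 1.97 under in vivo TECs and 0.59 over 2D. The gap between D7 and D3 was log2 4.27 without D3 replicate 1 and 4.77 without D3 replicate 2. Of the 2 gelatinase genes, *Mmp2* in D7 organoids overlapped the in vivo libraries and *Mmp9* did not.

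Among the inhibitors, *Timp1* marked the monolayer most sharply. It was at 0.694 and 3.09 CPM in vivo (4 and 22 counts), 196 and 207 in 2D, 9.43 and 7.66 in D3 organoids and 5.81 and 10.4 in D7 organoids. The 2D libraries were far above the rest, the organoids were intermediate with D3 and D7 overlapping, and the in vivo libraries were the lowest. In 2D it was 100-fold higher than in vivo (log2 6.64, SE 0.37, adjusted p = 2.3e-10 in edgeR). It was also higher than in vivo in D3 organoids (log2 2.08, SE 0.42, adjusted p = 0.0011) and D7 organoids (log2 1.97, SE 0.43, adjusted p = 0.0017). Organoids were below 2D by 23.6-fold at D3 (adjusted p = 4e-09) and 25.6-fold at D7 (adjusted p = 2.7e-09), and D7 and D3 did not separate (log2 -0.11, 95% interval -0.78 to 0.55, adjusted p = 0.86 in edgeR). The size over in vivo TECs depends on the 2 in vivo libraries. Without replicate 1 it was log2 6.01 in 2D, 1.45 in D3 and 1.33 in D7, and without replicate 2 it was 8.15, 3.59 and 3.45, all called.

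*Timp2*, which inhibits MMP2 and also takes part in its activation, varied less. It was at 70.1 and 96.2 CPM in vivo, 260 and 242 in 2D, 113 and 107 in D3 organoids and 177 and 205 in D7 organoids. The groups did not overlap, and the order from the lowest was in vivo, D3, D7 and 2D. It was 3.01-fold higher in 2D than in vivo (log2 1.59, SE 0.17, adjusted p = 1e-06 in edgeR) and 2.29-fold higher in D7 organoids than in vivo (log2 1.20, SE 0.17, adjusted p = 4.1e-05). It rose from D3 to D7 by log2 0.80 (SE 0.17, adjusted p = 0.0033), and D3 organoids were below 2D by log2 -1.19 (SE 0.17, adjusted p = 2.9e-05). The neighbouring groups in vivo and D3 (log2 0.40, 95% interval 0.06 to 0.74, adjusted p = 0.098 in edgeR) and D7 and 2D (log2 -0.39, 95% interval -0.72 to -0.07, adjusted p = 0.066) did not pass the test. *Timp2* and *Mmp2* therefore rose together from D3 to D7, while *Mmp14*, the third component of proMMP2 activation, fell. The *Mmp14* fall was small (log2 -0.47) and not robust to leaving out a library, and the contrast between the genes was not tested.

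*Timp3*, the matrix-bound inhibitor, was the only member of its family that was lower in 2D. It was at 539 and 574 CPM in vivo, 277 and 214 in 2D, 422 and 420 in D3 organoids and 442 and 492 in D7 organoids. The 2D libraries were the lowest and the in vivo libraries the highest, without overlap. It was 2.27-fold lower in 2D than in vivo (log2 -1.18, SE 0.15, adjusted p = 8.5e-06 in edgeR). Organoids exceeded 2D by log2 0.78 at D3 (SE 0.15, adjusted p = 0.00065) and 0.93 at D7 (SE 0.15, adjusted p = 0.00011). Neither D3 organoids (log2 -0.40, 95% interval -0.70 to -0.11, adjusted p = 0.057) nor D7 organoids (log2 -0.25, 95% interval -0.55 to 0.04, adjusted p = 0.21 in edgeR) passed the test against in vivo TECs, nor did D7 against D3 (log2 0.15, adjusted p = 0.54).

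Of the plasminogen activators, *Plau* (urokinase) separated all 4 groups. It was at 17.0 and 13.8 CPM in vivo (98 counts in each), 231 and 194 in 2D, 5.90 and 6.13 in D3 organoids and 0.989 and 0.197 in D7 organoids (8 and 1 counts). The order from the highest was 2D, in vivo, D3 and D7, with no overlap. In 2D it was 13.8-fold higher than in vivo (log2 3.79, SE 0.23, adjusted p = 6.7e-10 in edgeR). In organoids it was 2.54-fold lower than in vivo at D3 (log2 -1.35, SE 0.26, adjusted p = 0.00084) and 22-fold lower at D7 (log2 -4.46, SE 0.38, adjusted p = 1.1e-07), and it fell by 3.12 on the log2 scale from D3 to D7 (SE 0.43, adjusted p = 0.00012 in edgeR). Organoids were below 2D by log2 -5.14 at D3 (adjusted p = 1.2e-10) and -8.25 at D7 (adjusted p = 8.6e-12), the widest gap of any member in any comparison. Without D7 replicate 1, which leaves the library with 1 count, the D7 differences were -6.14 from in vivo, -9.93 from 2D and -4.79 from D3, and without D7 replicate 2 they were -3.92, -7.71 and -2.57, all called.

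The urokinase receptor gene *Plaur* was seen mainly in the monolayer. Its level was 1.04 and 0 CPM in vivo (6 and 0 counts), 14.5 and 17.6 in 2D (80 and 95 counts), 1.68 and 0.139 in D3 organoids (10 and 1 counts) and 0.247 and 1.58 in D7 organoids (2 and 8 counts). The 2D libraries lay above the other 6, which overlapped across groups. It was higher in 2D than in vivo (log2 5.0, SE 1.0, adjusted p = 0.00064 in edgeR), and lower than 2D in D3 organoids (log2 -4.18, SE 0.92, adjusted p = 0.0017) and D7 organoids (log2 -4.26, SE 0.94, adjusted p = 0.0014). With so few counts outside 2D the sizes are loose. The 2D difference from in vivo was 3.93 without in vivo replicate 2 and 9.67 without in vivo replicate 1, whose absence leaves a single library at 0. The D3 difference from 2D was -6.66 without D3 replicate 1 and -3.22 without D3 replicate 2, and the D7 difference was -3.33 without D7 replicate 1 and -5.91 without D7 replicate 2. Organoids and in vivo TECs could not be distinguished at this depth, at D3 (log2 0.83, 95% interval -1.51 to 3.16, adjusted p = 0.66) or at D7 (log2 0.74, 95% interval -1.63 to 3.12, adjusted p = 0.68 in edgeR).

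*Plat* (tissue plasminogen activator) did not share the pattern of *Plau*. It was at 2.43 and 0.422 CPM in vivo (14 and 3 counts), 2.72 and 3.33 in 2D, 9.94 and 3.62 in D3 organoids and 9.65 and 5.32 in D7 organoids. Replicates were spread widely, and D3 and D7 overlapped. It was higher than in vivo in D3 organoids (log2 2.28, SE 0.73, adjusted p = 0.026 in edgeR) and D7 organoids (log2 2.45, SE 0.72, adjusted p = 0.015). Both calls were lost without in vivo replicate 2 (log2 1.47 and 1.63), the D3 call without D3 replicate 1 (1.38) and in a fit of those 2 groups alone, and the D7 call without D7 replicate 1 (1.93). Without in vivo replicate 1 the differences were 3.93 and 4.10. 2D-cultured and in vivo TECs differed by log2 1.13 (95% interval -0.37 to 2.63, adjusted p = 0.26), a difference that was called at 2.78 without in vivo replicate 1, and organoids and 2D by 1.15 at D3 (adjusted p = 0.19) and 1.32 at D7 (adjusted p = 0.12 in edgeR).

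**Figure D2:**
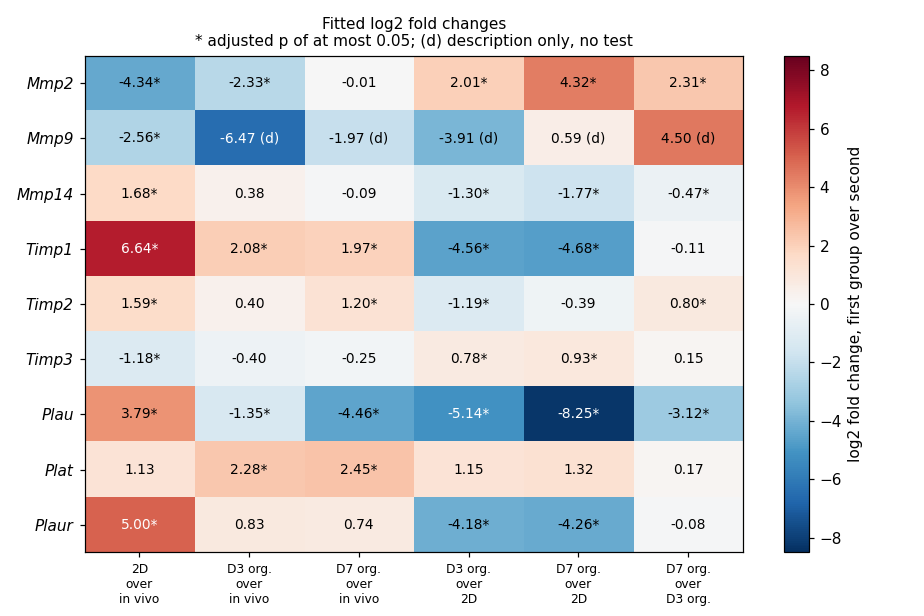
Fitted log2 fold change of each gene (rows) in each of the 6 comparisons (columns, first group over second), coloured from blue (lower) to red (higher), with a star for an adjusted p of at most 0.05 and (d) for *Mmp9* values that are description only. The 2D over in vivo column runs from -4.34 (*Mmp2*) to 6.64 (*Timp1*), and the *Plau* row reaches -8.25 in D7 organoids over 2D.

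The other genes of these pathways were taken from lists by family and known role, 71 genes of which 42 were tested. In 2D-cultured relative to in vivo TECs, 24 rose and 9 fell, 78.6% of those tested. In D3 organoids 15 were higher and 4 lower than in vivo (45.2%), and in D7 organoids 13 were higher and 7 lower (47.6%). Relative to 2D, 12 were higher and 22 lower in D3 organoids (81.0%) and 11 higher and 19 lower in D7 organoids (71.4%), and between D7 and D3 organoids 8 were higher and 8 lower (38.1%). All genes tested gave 41.6%, 28.2% and 34.8% in the 3 comparisons with in vivo TECs, 38.3% and 45.5% in those with 2D, and 20.8% between D7 and D3. The lists were chosen with earlier results known, so the shares are a description of them.

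Of the 20 other metalloproteinase genes listed, 4 passed the filter (*Mmp11*, *Mmp15*, *Mmp16* and *Mmp23*). All 4 were higher in 2D than in vivo, where 19.9% of all genes were higher. *Mmp15*, a second membrane-type enzyme, was at 5.03 and 5.20 CPM in vivo, 109 and 108 in 2D, 15.2 and 6.69 in D3 organoids and 23.1 and 21.3 in D7 organoids. It was higher in 2D than in vivo by log2 4.4 (SE 0.31, adjusted p = 4.6e-09 in edgeR) and, unlike *Mmp14*, also in D7 organoids (log2 2.11, SE 0.31, adjusted p = 5.4e-05), a contrast between the 2 genes that was not tested itself. *Mmp23* was at 13.1 and 10.4 CPM in 2D and at most 1.18 elsewhere. It passed the filter only because both 2D libraries were high, so its place among the 4 is not independent of the filter.

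All 4 genes listed as MMP activators and binding partners were higher in 2D than in vivo, against 19.9% of all genes. *Furin*, the proprotein convertase that activates MMP14, was at 23.4 and 22.2 CPM in vivo, 215 and 213 in 2D, 41.3 and 36.9 in D3 organoids and 73.6 and 79.6 in D7 organoids. It was higher than in vivo in all 3 cultures (log2 3.23 in 2D, 0.78 at D3 and 1.75 at D7). *Cd44*, a hyaluronan receptor that docks MMP14 and MMP9, was at 60.9 and 59.2 CPM in vivo, 498 and 428 in 2D, 54.9 and 47.5 in D3 organoids and 12.4 and 16.0 in D7 organoids. Unlike *Furin* it fell from D3 to D7 (log2 -1.87, SE 0.19, adjusted p = 5.1e-06 in edgeR), and at D7 it was below in vivo (log2 -2.10, SE 0.19, adjusted p = 2.1e-07). *Lcn2*, which encodes a lipocalin, was at 1.39 and 16.5 CPM in vivo, 186 and 177 in 2D, 27.3 and 38.0 in D3 organoids and 132 and 143 in D7 organoids. It rose from D3 to D7 by log2 2.07 (SE 0.41, adjusted p = 0.002). *Bsg*, which encodes the MMP inducer basigin, was also higher than in vivo in 2D (log2 1.07), D3 (0.53) and D7 (1.0).

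In the plasminogen branch, the list of plasminogen receptors split. *Anxa2* and *S100a10*, the 2 chains of the annexin A2 complex that binds plasminogen and tissue activator, were higher in 2D than in vivo by log2 2.47 (SE 0.18, adjusted p = 5.3e-09 in edgeR) and 2.52 (SE 0.16, adjusted p = 1.5e-09). *Anxa2* was at 142 and 172 CPM in vivo, 844 and 898 in 2D, 74.0 and 89.6 in D3 organoids and 101 and 133 in D7 organoids. *Plgrkt*, another plasminogen receptor, was highest in vivo at 400 and 318 CPM, against 31.2 and 22.6 in 2D, 49.4 and 47.4 in D3 organoids and 34.8 and 31.7 in D7 organoids. It was lower in all 3 cultures (log2 -3.74 in 2D, -2.89 at D3 and -3.43 at D7). *Eno1*, at 7.17 to 19.6 CPM over the libraries, was higher in 2D than in vivo by log2 0.97 (adjusted p = 0.026 in edgeR). It did not pass between organoids and in vivo TECs. Whether its reads are shared with other genes was not examined. *Plg*, the plasminogen gene itself, had 0 counts in every library.

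The inhibitors of plasminogen activation differed from each other. *Serpinb2* (PAI-2) was at 2.08 and 0.141 CPM in vivo, 26.3 and 18 in 2D, 6.57 and 4.74 in D3 organoids and 0.495 and 0 in D7 organoids. The 2D libraries were the highest, and the D7 and in vivo libraries overlapped (log2 -1.75, adjusted p = 0.22). It fell from D3 to D7 by 4.16 on the log2 scale (SE 0.86, adjusted p = 0.0027 in edgeR). *Serpine2*, protease nexin 1, was at 128 and 131 CPM in vivo, 97.9 and 93.9 in 2D, 274 and 210 in D3 organoids and 296 and 312 in D7 organoids. It was lower in 2D than in vivo (log2 -0.43, SE 0.16, adjusted p = 0.04) and higher in D3 (log2 0.90, SE 0.16, adjusted p = 0.00034) and D7 organoids (log2 1.23, SE 0.16, adjusted p = 1.3e-05 in edgeR).

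**Figure D3:**
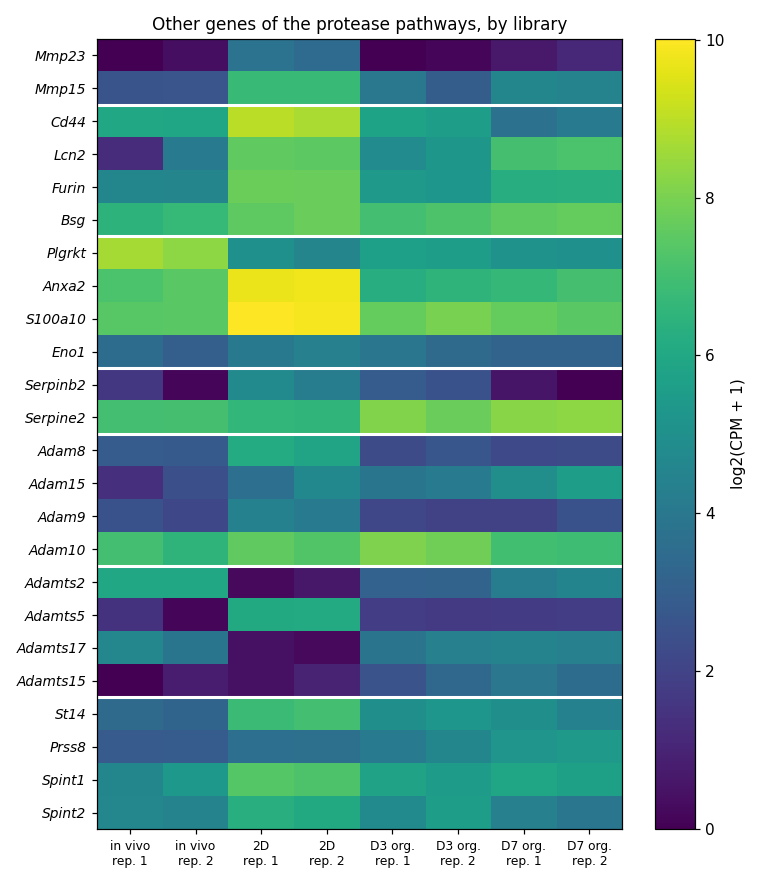
Level of 24 other pathway genes (rows, white lines between lists) in each library (columns) as log2(CPM + 1), from dark (0) to yellow (10). *Anxa2*, *S100a10*, *Cd44* and *Furin* are brightest in the 2D libraries, *Plgrkt* and *Adamts2* in the in vivo libraries, and *Serpine2* in the organoids.

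Among related protease families, 4 of 5 ADAM sheddase genes tested were higher in 2D than in vivo, against 19.9% of all genes. *Adam8* was highest in 2D, at 69.8 and 57.0 CPM against 6.59 and 6.05 in vivo, and did not pass between organoids and in vivo TECs, while *Adam15* rose from D3 to D7 organoids (log2 1.36, SE 0.37, adjusted p = 0.015 in edgeR). *Adam9* was higher in 2D than in vivo (log2 2.15, adjusted p = 0.00056), and *Adam10* was highest in D3 organoids, at 266 and 227 CPM against 127 and 91.0 in vivo. Of 15 ADAMTS genes, 7 were lower and 2 higher in 2D than in vivo, against 21.7% lower and 19.9% higher of all genes. *Adamts2*, a procollagen N-proteinase, was at 61.9 and 61.3 CPM in vivo, 0.181 and 0.556 in 2D, 7.92 and 8.22 in D3 organoids and 18.2 and 21.9 in D7 organoids, the same order as the *Mmp9* groups except that 2D rather than D3 was lowest. *Adamts5*, an aggrecanase, was highest in 2D, at 66.9 and 67.6 CPM in 2D and at most 2.56 elsewhere. *Adamts17* was at most 0.363 CPM in 2D and at least 13.3 elsewhere, and *Adamts15* was above in vivo in D3 (log2 4.16) and D7 organoids (log2 4.98).

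Membrane serine proteases and their Kunitz inhibitors were above in vivo in 6 of 7 genes in 2D, 5 of 7 in D3 organoids and 6 of 7 in D7 organoids, with none lower, where 19.9%, 14.1% and 18.0% of all genes were higher. *St14* (matriptase), which cleaves pro-urokinase, was at 10.1 and 8.44 CPM in vivo, 113 and 128 in 2D, 31.0 and 37.3 in D3 organoids and 30.4 and 20.3 in D7 organoids. *Prss8* (prostasin), its partner protease, was highest in D7 organoids at 36.5 and 40.8 CPM and rose from D3 to D7 (log2 0.97, SE 0.25, adjusted p = 0.0099 in edgeR). The matriptase inhibitor genes *Spint1* and *Spint2* were above in vivo in 2D (log2 2.32 and 1.66), and *Spint2* fell from D3 to D7 by 1.11 on the log2 scale (adjusted p = 0.0074).

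A further 29 pathway genes did not pass the filter, and 7 of them (*Mmp1a*, *Mmp1b*, *Mmp3*, *Mmp7*, *Mmp21*, *Plg* and *Serpina5*) had 0 counts in all 8 libraries. The filter asked for 3 libraries, so it removed genes that reached 1 CPM, before TMM scaling, in the 2 libraries of 1 group and in no other. There were 9 of these, named here after their values were seen and given without a test. In 2D these were the secreted metalloproteinases *Mmp10*, *Mmp12* and *Mmp13*, and *Adam12*, *Adamts16* and *Tmprss11e*. *Mmp10* (stromelysin 2) was at 4.71 and 5.56 CPM in 2D and had 0 counts elsewhere, at least 8.69-fold higher against a floor of 3 counts per library. *Mmp12* (macrophage elastase) was at 4.71 and 8.52 CPM and had 0 counts elsewhere, at least 11.2-fold higher. *Mmp13* (collagenase 3) was at 7.80 and 11.1 CPM, with at most 0.418 CPM elsewhere, and *Adam12* at 93.7 and 94.5 CPM, with at most 0.618 elsewhere. In vivo these were *Adam19* at 59.0 and 31.2 CPM (at most 1.11 elsewhere), *Serpini1* at 13.4 and 5.91 CPM (at most 0.557 elsewhere) and *Adamts8* at 2.78 and 3.09 CPM (at most 0.394 elsewhere). The same libraries held RNA of thymocyte markers, 628 and 275 CPM summed over 10 genes. The part of thymocytes in these values was not tested.

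Because MMP2, MMP9 and PLAU are also made by stromal and blood cells, markers of other cell types were set beside them. The 10 mesenchymal markers summed to 50.9 to 53.1 CPM in vivo, 142 to 176 in 2D, 24.5 to 29.1 in D3 organoids and 77.0 to 86.3 in D7 organoids. Most of the 2D sum was *Acta2*, the smooth muscle actin gene, at 135 and 106 CPM. That gene was highest in the group where *Mmp14*, *Timp1*, *Timp2*, *Plau* and *Plaur* were highest. *Col1a1* (12.9 and 9.63 CPM) and *Col3a1* were also highest in 2D, though neither was called against in vivo TECs. *Pdgfra* was at 1.45 and 0 CPM in 2D and *Pdgfrb* at 0.363 and 0.370. Against in vivo TECs, *Acta2* was called higher in 2D and *Dcn* and *Lum* lower, of 8 tested. All genes gave 19.9% higher and 21.7% lower. The part of mesenchymal cells in the values of those members was not tested. *Dcn* was at 18.2 and 23.1 CPM in vivo, 1.45 and 4.63 in 2D, 7.08 and 3.34 in D3 organoids and 53.4 and 50.8 in D7 organoids, and *Lum* at 14.8 and 7.49 CPM in D7 organoids and at most 3.09 elsewhere. From D3 to D7, 3 of the 8 mesenchymal markers tested were called higher and none lower, against 10.9% higher and 9.90% lower of all genes. These were *Dcn* (log2 3.34, adjusted p = 1.2e-05 in edgeR), *Lum* (log2 2.35, adjusted p = 0.025) and *Col3a1* (log2 3.34, adjusted p = 0.0095), which rose as *Mmp2* did. *Dcn* and *Lum* were also lower in 2D than in vivo, as *Mmp2* was. In D7 organoids both were called higher than in vivo, and *Mmp2* was not (log2 -0.01). In D3 organoids *Dcn* was called lower than in vivo, as *Mmp2* was, and *Lum* was not. *Col3a1* was at 3.47 and 5.62 CPM in vivo, 10.2 and 8.71 in 2D, 0 and 0.557 in D3 organoids and 3.46 and 2.96 in D7 organoids, and *Col1a1* was not called between D7 and D3 (log2 0.55, adjusted p = 0.63). *Pdgfra* had 1 and 0 counts in D3 organoids and 7 and 1 in D7 organoids, and *Pdgfrb* 0 and 0 and then 2 and 0. In vivo *Pdgfrb* was at 8.16 and 4.22 CPM. *Col1a2* was lower in D7 than in D3 organoids and not called (log2 -0.83, adjusted p = 0.16 in edgeR). *Twist1*, also not called, was at 4.55 and 4.32 CPM in D3 and 1.73 and 2.96 in D7 organoids. The part of mesenchymal cells in the *Mmp2* values was not tested.

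The 10 myeloid markers summed to 58.2 to 110 CPM in vivo, 1.45 to 6.30 in 2D, 1.01 to 1.67 in D3 organoids and 12.6 to 12.8 in D7 organoids. Most of the in vivo sum was *Ptprc* (CD45), at 95.3 and 41.9 CPM, with *S100a8* at 6.59 and 6.19, *Lyz2* at 3.12 and 2.39, *Fcer1g* at 1.74 and 2.11 and *S100a9* at 1.56 and 2.25 CPM. *Ptprc* marks immune cells in general. Like the thymocyte sum (628 and 275 CPM), it was higher in in vivo replicate 1 than in replicate 2. *Csf1r* and *Itgam* were at 0 in both in vivo libraries. Most of the D7 sum was *Lyz2*, at 12.1 and 10.2 CPM, which rose from D3 to D7 (log2 6.01, SE 1.13, adjusted p = 0.0013 in edgeR) where *Mmp9* was also higher. The other 9 markers were at 0 to 0.985 CPM in D7 organoids, with *Csf1r*, *Itgam*, *Adgre1*, *Tyrobp* and *S100a8* at 0 in both libraries. The part of myeloid cells in the *Mmp9* levels was not tested. The 10 thymocyte markers summed to 275 to 628 CPM in vivo and to at most 12.8 in the cultures. The 8 endothelial markers summed to 0.674 to 9.14 CPM, with *Cdh5* and *Tie1* at 0 in every library, and the 6 erythroid markers to at most 12 CPM.

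**Figure D4:**
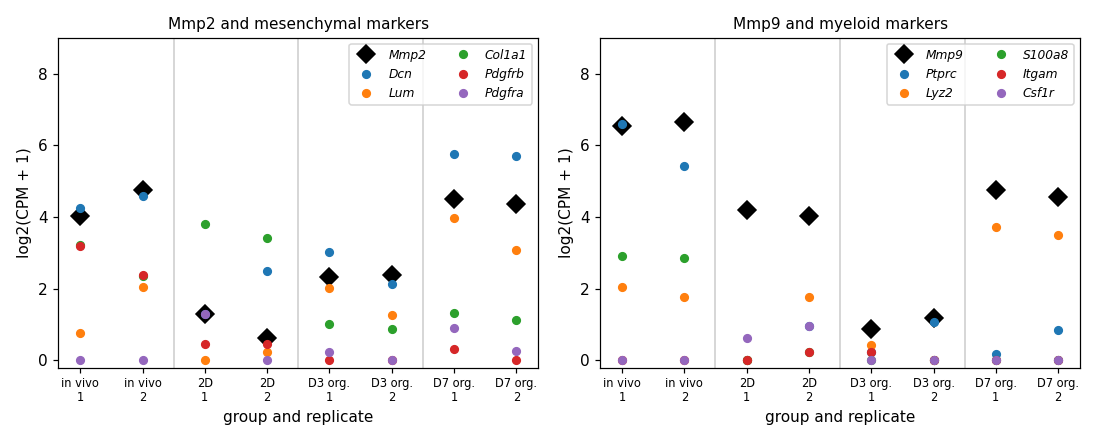
Left, *Mmp2* (black diamonds) and 5 mesenchymal markers, and right, *Mmp9* (black diamonds) and 5 myeloid markers, as log2(CPM + 1) in each library, with grey lines between groups and points at 0 lying on top of each other. *Dcn* and *Lum* are higher in the D7 than in the D3 organoids, as *Mmp2* is, and *Lyz2* is higher there, as *Mmp9* is. Each panel shows 5 of the 10 markers listed, and *Col3a1*, not shown, was also called higher at D7 than at D3. *Col1a1* was not called between D7 and D3 (adjusted p = 0.63 in edgeR), and *Pdgfra* and *Pdgfrb* are at most 0.866 CPM in organoids. In D7 organoids *Ptprc* is at most 0.788 CPM, and *S100a8*, *Itgam* and *Csf1r* are at 0.

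Likeness of pattern was described by Pearson's r of log2(CPM + 1) over the 8 libraries, which share groups in pairs, among 9009 genes with a mean of at least 10 CPM. Between members, *Mmp14* ran with *Timp1* (r = 0.935), *Plaur* (0.898) and *Plau* (0.889) and against *Timp3* (-0.948) and *Mmp2* (-0.914). *Mmp2* ran with *Timp3* (0.908), and *Mmp9* was not close to any member, its highest value being 0.531 with *Mmp2*. The genes most like *Mmp9* were *Tmem161b* (r = 0.991), *Bnip3l* and *Spats2* (both 0.983), and those most like *Mmp2* were *Plxnb1* (0.992), *Mtss2* (0.988) and *Nicn1* (0.983). *Mmp14* was closest to *Apbb2* (0.998), *Ccn2* and *Rtn4* (both 0.996). *Timp1* was closest to *Afdn* (0.996), *Lgals3* (0.995) and *Acer3* (0.992), *Timp2* to *Tgoln1*, *Sars1* and *Chmp1a* (0.987 to 0.988), and *Timp3* to *Hic1* (0.993), *Lypd1* (0.990) and *Kcnip3* (0.989). *Plau* was closest to *Calcb* (0.997), *Bhlhe40* (0.996) and *Tpi1* (0.994), *Plaur* to *Yme1l1* (0.989), *Pak1* (0.988) and *Nsun2* (0.983), and *Plat* to *Gfpt1* (0.972), *Golim4* (0.951) and *Mark4* (0.946).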

How the data were processed

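The authors sorted TECs, made QuantSeq 3′ mRNA libraries, mapped the reads with STAR to GRCm39 and deposited raw counts per gene, 1 file per library. QuantSeq reads 1 tag near the 3′ end of each transcript, so a count does not scale with transcript length. It is not given in the sources used here which strand setting or annotation release the counting used. The labels put the 8 libraries in 4 groups of 2. Gene names, exons and promoters were taken from GENCODE vM39 (56236 of 56923 identifiers matched). The 14504 genes at 1 CPM or more in 3 or more libraries were tested with edgeR 4.0.16 in R 4.3.3 (quasi-likelihood test, TMM factors, 1 model of 4 groups, Benjamini-Hochberg over all genes, threshold 0.05). CPM values in the text are counts divided by the TMM-adjusted library size on the usual CPM scale. Adjusted p-values come from that model. Standard errors were derived from it as the absolute log2 fold change divided by the square root of the F statistic. The 95% intervals use a normal quantile with these errors, so they are narrower than the test implies. The 9 genes and all lists (other metalloproteinases and inhibitors, activators, plasminogen receptors, serpins, ADAM, ADAMTS, membrane serine proteases, and markers of 6 cell types) were chosen with earlier results of these data known. Pathway genes were named by rule, up to 4 per list with the largest log2 fold change, called in at least 1 comparison and at 10 CPM or more in both libraries of a group, plus *Serpine2* and *Serpinb2*. 1 gene of the lists is not reported here. The 3 genes most correlated with each member were also named by rule. None of the 3 other MMP inhibitor genes listed was tested. No set test was run. The script was tested on simulated data. Alternatives were other normalizations, filters and thresholds, limma-voom 3.58.1 (the test of the study), DESeq2 1.42.0, a replicate block, the 2 groups compared alone and each library left out. When a library was left out, the remaining one was assumed to vary like the other groups. Count intervals and floors cover counting error only.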

Additional observations from a re-analysis of the deposited data

How the results depend on the processing

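Of the 6 counts of members called, 107 recomputed values stayed within 1.5 times the reported one, and 1 did not, since asking for an absolute log2 fold change of at least 1 left 2 members between D7 and D3 organoids (*Mmp2* and *Plau*) in place of 4. With each library left out in turn the counts were 8 to 9 (2D over in vivo), 3 to 5 (D3 over in vivo), 3 to 4 (D7 over in vivo), 6 to 7 (D3 over 2D), 6 to 7 (D7 over 2D) and 3 to 4 (D7 over D3). Reversed signs were limited to differences that no setting called. *Mmp2* in D7 over in vivo was 0.015 without normalization beyond library size, 0.020 in limma-voom and 0.020 with no filter on low counts, and -0.35 to 0.42 with 1 library left out. *Plaur* in D7 over D3 was 0.14 in limma-voom and -1.73 to 2.39 with 1 library left out. With 1 library left out, *Plaur* ran from -1.65 to 5.48 in D3 over in vivo and from -0.91 to 5.38 in D7 over in vivo, and in D7 over D3 *Timp1* ran from -0.54 to 0.30 and *Plat* from -0.46 to 1.06. The cause was not tested. *Mmp14* in D3 over in vivo passed the threshold in 7 settings, *Timp3* in 6 and *Timp2* in 3, and *Timp2* in D7 over 2D in 9.

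Without normalization beyond library size, the share of called genes that were higher went from 47.8% to 37.2% in 2D over in vivo, from 50.3% to 67.3% in D3 over 2D and from 53.6% to 65.2% in D7 over 2D, and the median of all genes from -0.056 to -0.235, from 0.024 to 0.288 and from 0.102 to 0.307 (log2). The called members kept their signs there.

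Replicate numbers are shared between groups as numbers only, and the deviations of same-numbered libraries correlated at 0.04 to 0.15. With the replicate block, members called were 8, 6, 4, 7, 7 and 4 in the order above, all genes called between D7 and D3 went from 3011 to 3585, and 2 differences under 0.1 changed sign (*Mmp2*, D7 over in vivo, 0.00768, and *Plaur*, D7 over D3, 0.00243). Depth limits *Plaur*, *Plat*, *Mmp2* in 2D and *Plau* in D7 organoids, which rest on 0 to 30 counts in some libraries.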
